A study of Mus musculus with 6 samples.

Results

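The genes described here encode the proteins of the mitochondrial ribosome, the mitoribosome. Members were the rows of the deposited table whose symbol starts with Mrpl or Mrps followed by a digit, without pseudogene names containing -ps, and with a mean normalised read count of at least 10 over the 6 libraries. All 77 rows with such a name passed, so there were 77 members among the 23306 genes with an identifier. The member with the lowest mean was Mrps6 at 598, no named row lay under 10, and the 4 pseudogene rows left out had means from 29.4 to 82.0. Each member was protein coding in GENCODE M21 and was among the 17993 genes tested.

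PolyA RNA was sequenced from 6 isogenic mouse tumours of the leukaemia T-ALL (acute lymphoblastic leukaemia of T cells) on the C57BL/6 strain background, harvested from bone marrow. The design had 3 libraries with wild-type Phf6 (WT) and 3 with Phf6 knocked out (KO), and a tamoxifen-inducible Cre recombinase, an enzyme that cuts out marked DNA, made the deletion. Corn oil was the vehicle, so drug exposure and loss of the gene cannot be told apart from the labels, which give neither the promoter driving Cre, nor the age of the animals, nor whether each library of a genotype stems from its own animal; p-values therefore measure the spread between these samples, which may be technical. The protein PHF6 is a chromatin-associated tumour suppressor of T-ALL. Phf6 had normalised read counts of 5508, 4239.6 and 5075 in WT libraries 1 to 3 and 1781, 2337 and 1755 in KO libraries 1 to 3 (log2 fold change -1.34 ± 0.13 SE, limma adjusted p = 0.00184). Reads assigned to genes numbered 46067511 to 54953145 per library. The summed level of 10 T-lineage markers was 3985 to 4334 CPM (counts scaled to equal library totals) in WT and 3487 to 4306 CPM in KO, with no marker at 0 in any library. Of these, Cd247 (-0.57, limma adjusted p = 0.00431) and Cd5 (-0.48, limma adjusted p = 0.0179) were called lower and none higher. Over all tested genes limma called 3.43% lower and 5.32% higher. In direction 6 of the 10 were negative and 4 positive, with a median of -0.15. Cd8a was the highest at 0.53 (limma adjusted p = 0.274). The Cd5 call was lost without WT library 1 or 3 and without KO library 2 or 3.

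Mitoribosomes translate the few messenger RNAs encoded by mitochondrial DNA, which specify core subunits of the respiratory chain and of ATP synthase. Their ribosomal RNAs come from mitochondrial DNA, whereas every protein is encoded in the nucleus, made in the cytosol and imported. Part of these proteins have counterparts in bacterial ribosomes and part were added in mitochondria. The large subunit joins amino acids and the small subunit reads the messenger RNA. The symbols do not always give the subunit: MRPS30 and MRPS18A sit in the large subunit, and MRPS36 is now regarded as a component of the 2-oxoglutarate dehydrogenase complex rather than of the ribosome. With these assignments 50 members belonged to the large subunit and 26 to the small one. Of the 76 members placed in a subunit, 46 had a bacterial counterpart and 30 were mitochondria-specific.

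The members lay on 17 chromosomes, 11 of them on chromosome 11, and some of the motifs searched were more frequent in their promoters than over all promoters. Promoter sequence, from 250 bases before to 50 bases after the start, was taken from RefSeq (GRCm38.p6) for 68 members; no window was used here for Mrpl4, Mrpl13, Mrpl15, Mrpl19, Mrpl38, Mrpl54, Mrps28, Mrps34 and Mrps35. In these 68 promoters the median share of G and C bases was 58.2%, against 52.7% over all RefSeq promoters. Motifs were searched as exact letters on both strands, and the part of base content in the matches was not tested. The ETS or GABP core CCGGAAG was in 33.8% of these promoters, against 9.16% of all 27025 RefSeq promoters of that length and 18.5% of those of tested coding genes. The NRF1 core, GCGCA and GCGC with any base between them, was in 19.1%, against 4.81% and 10.4%. The YY1 core AANATGGCG was in 16.2%, against 2.52% and 5.25%. GABP and NRF1 are known activators of nuclear genes for mitochondrial proteins. The E-box CACGTG, which MYC and related factors bind, was in 7.35%, against 7.20% and 9.95%, and the SP1 core GGGCGG in 34 of the 68, against 36.0% and 63.2%. Matching letters are a description and do not show binding.

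The start regions of the 3 members called lower (Mrps25, Mrpl14 and Mrpl36) are printed next, followed by those of Mrpl27 and Mrpl17 as examples with the ETS and NRF1 letters. All are on GRCm38.p6, 5′ to 3′ on the gene's strand, with every match to the 5 motifs in capitals, and the 4 long stretches end before the first exon base in GENCODE. Mrps25 is chr6:92184034-92184273 (minus strand), Mrpl14 is chr17:45686099-45686321 (plus), Mrpl27 is chr11:94653541-94653766 (plus) and Mrpl17 is chr7:105811100-105811337 (minus). For Mrpl36 30 bases are given, chr13:73330961-73330990 (plus), because an exon of a second Mrpl36 transcript covers that region. These bases precede the RefSeq start. They lie inside the GENCODE gene, which begins at 73328513, and so apart from its first exon, which overlaps the opposite-strand gene Ndufs6.
Mrps25: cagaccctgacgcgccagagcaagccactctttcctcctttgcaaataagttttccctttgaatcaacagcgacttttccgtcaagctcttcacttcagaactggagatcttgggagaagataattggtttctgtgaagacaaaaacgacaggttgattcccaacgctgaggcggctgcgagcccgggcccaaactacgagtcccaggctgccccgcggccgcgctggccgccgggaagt
Mrpl14: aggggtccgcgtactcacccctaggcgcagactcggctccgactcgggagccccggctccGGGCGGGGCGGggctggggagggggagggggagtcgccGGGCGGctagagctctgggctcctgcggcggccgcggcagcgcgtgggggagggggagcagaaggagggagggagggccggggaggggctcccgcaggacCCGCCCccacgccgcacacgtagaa
Mrpl36: catccCACGTGaccttaCGCCATCTTtctt
Mrpl27: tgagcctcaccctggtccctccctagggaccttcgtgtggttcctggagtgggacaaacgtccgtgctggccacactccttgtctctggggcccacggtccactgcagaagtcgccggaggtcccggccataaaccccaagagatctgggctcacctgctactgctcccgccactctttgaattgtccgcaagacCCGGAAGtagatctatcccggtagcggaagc
Mrpl17: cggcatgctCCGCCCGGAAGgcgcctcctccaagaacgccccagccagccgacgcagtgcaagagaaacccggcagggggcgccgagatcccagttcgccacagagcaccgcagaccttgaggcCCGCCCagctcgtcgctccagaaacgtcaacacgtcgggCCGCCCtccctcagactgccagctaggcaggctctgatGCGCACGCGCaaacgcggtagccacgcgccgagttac
Mrps25 held none of the motifs, and the Mrpl14 stretch held SP1 letters at 4 positions. In the part of the 300-base window that is not printed, Mrpl14 also held the NRF1 letters and Mrpl27 the YY1 letters. Mrpl36 held the E-box letters followed by the YY1 letters. The Mrpl27 stretch held the ETS letters, and Mrpl17 held NRF1 and SP1 letters and an ETS match that overlaps an SP1 match. Among the 23 members with a promoter whose KO values all lay below the WT values, 5 held the ETS letters in the full window, 4 NRF1, 3 YY1, 1 the E-box and 14 SP1. Among the other 45 the numbers were 18, 9, 8, 4 and 20, and the differences were not tested.

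Most nuclear genes of the mitoribosome had somewhat lower values in the knockout libraries, but few passed the test. Mrps25, Mrpl14 and Mrpl36 fell, no member rose, and the other 74 did not pass (limma on log2(value + 2), Benjamini-Hochberg adjustment over all genes, threshold 0.05). Over all tested genes 3.43% were called lower and 5.32% higher, and the 3 of 77 members called lower stand beside that background. With library totals as the scaling the background was 1.67% lower and 6.74% higher, and 1 member, Mrps25, was called lower. Leaving out a library left no member called lower without WT library 1 or KO library 3 (background 0.506% and 0.406%), 1 without WT library 2 or 3 (4.37% and 0.956%) and 2 without KO library 1 or 2 (2.20% and 2.01%). edgeR called 2 members lower (background 2.84%) and DESeq2 called 6 (5.02%). Among the 6189 tested genes with a mean in the range of the members, 5.22% were called lower and 3.09% higher. No member was called higher by edgeR or DESeq2 either (background 5.32% and 7.39%), and no member with a positive value had an unadjusted p under 0.05 in limma. In direction, 72 of 77 members had negative log2 fold changes, against 51.7% of all tested genes and 58.8% of those in the same range of means. The log2 fold changes ran from -0.54 (Mrps25) to 0.15 (Mrpl33), with a median of -0.12 against -0.01 over all genes. The number of negative members was 52 with library totals as the scaling, 60 without WT library 2 and 60 without KO library 3. With library totals the median of the members was -0.04 and that of all genes 0.07, and without KO library 3 the medians were -0.07 and -0.0063. In bulk tumour RNA, fewer cells of a type and less RNA per cell cannot be told apart.

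**Figure D1:**
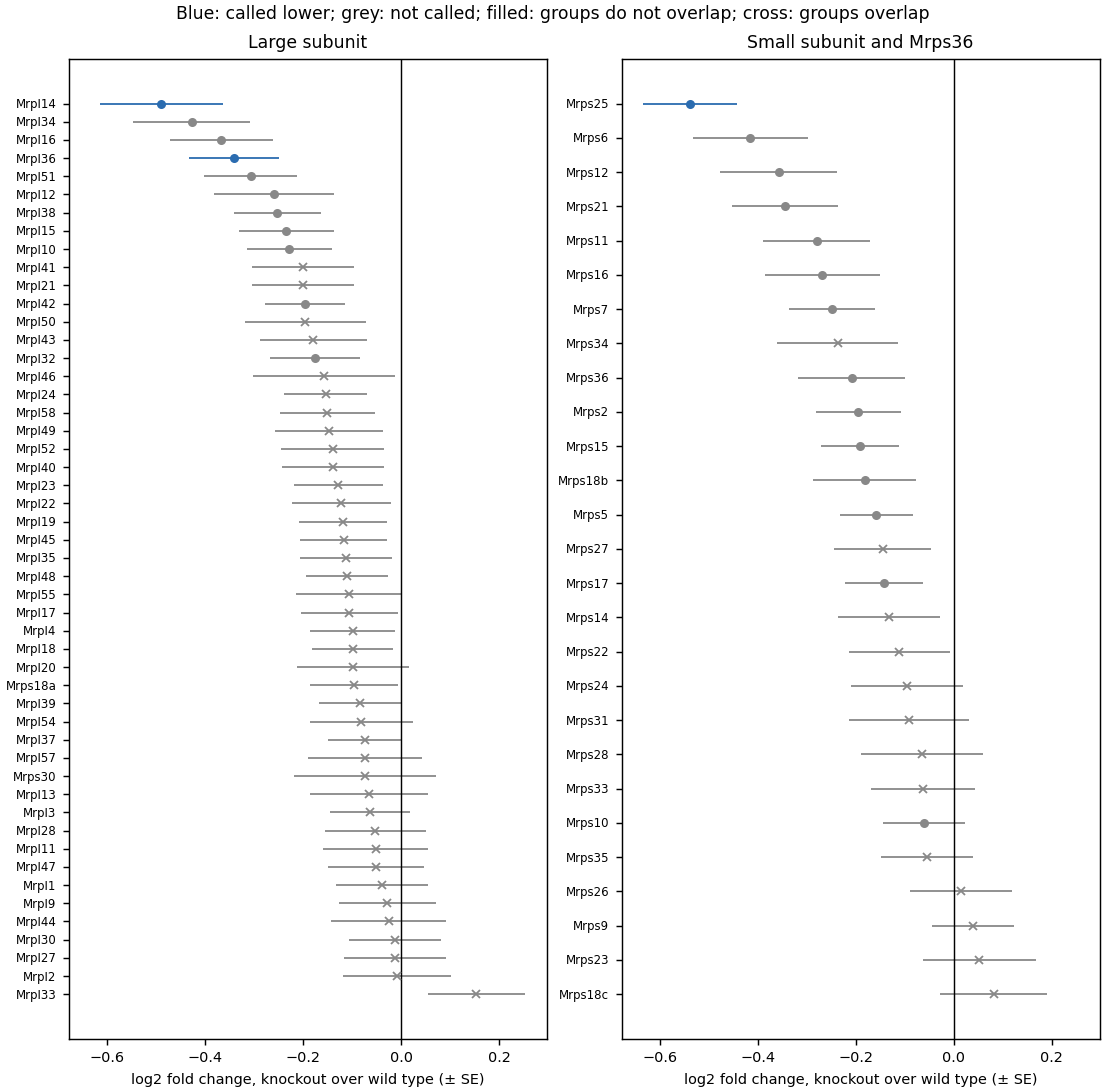
Difference between genotypes on the log2 scale (KO minus WT, ± SE) for each of the 77 members, with the large subunit on the left and the small subunit and Mrps36 on the right. Mrpl14, Mrpl36 and Mrps25, in blue, were called lower; filled points mark the 25 members whose KO values all lay below their WT values, and crosses the others.

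Among the members Mrps25 had the largest log2 fold change in size. MRPS25 is a mitochondria-specific protein of the small subunit. Its gene (ENSMUSG00000014551; GRCm38 chromosome 6, 92169525 to 92184033, minus strand) had normalised read counts of 1637, 1489 and 1569 in WT libraries 1 to 3 and 1104, 1133 and 996 in KO libraries 1 to 3. The groups did not overlap, and KO library 3 was the lowest. Values of single genes given as reads from here on are such normalised read counts. The means were 1565 ± 73.8 and 1078 ± 72.2 (SD, n = 3 each), with a ratio of 0.689 (log2 fold change -0.54 ± 0.10 SE; limma adjusted p = 0.0109). The call was kept in 14 of 16 alternatives and lost without WT library 1 (adjusted p = 0.0597) and without KO library 3 (adjusted p = 0.0577). Of the 6576 exon bases of Mrps25, 4590 overlap exons of Nr2c2, a nuclear receptor gene on the opposite strand, and the strand setting of the counting is not given in the sources used here. Nr2c2 had 3755, 2658 and 3823 reads in WT and 3874, 3536 and 4237 in KO, with a log2 fold change of 0.20 (adjusted p = 0.419). Without that setting it is not known whether reads from these overlapping exons were told apart.

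Mrpl14 encodes a large-subunit protein with a bacterial counterpart, uL14. The gene (ENSMUSG00000023939; chromosome 17, 45686322 to 45698495, plus strand) had 959, 1014 and 931 reads in WT and 730.2, 767 and 583 in KO. The groups did not overlap, and KO library 3 was again the lowest. The log2 fold change was -0.49 ± 0.13 (SE; limma adjusted p = 0.0406), with means of 968 ± 42.4 and 693 ± 97.4 (SD, n = 3 each). Its call was kept in 9 of 16 alternatives. It was lost without WT library 1, 2 or 3, without KO library 1 or 3 and with library totals. Without the intensity trend and robust estimation it was lost too, and limma adjusted p ran up to 0.137.

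Mrpl36, for the bacterial-type protein bL36 of the large subunit (ENSMUSG00000021607; chromosome 13, 73328513 to 73332178, plus strand), had 1959.9, 2089 and 1935 reads in WT and 1702, 1549 and 1475 in KO. Its log2 fold change was -0.34 ± 0.09 (SE; limma adjusted p = 0.0470), with means of 1995 ± 82.5 and 1575 ± 116 (SD, n = 3 each). The groups did not overlap. The call was kept in 5 of 16 alternatives and was lost in edgeR, with TMM scaling and whenever any single library was left out, with adjusted p up to 0.150. Its annotated first exon overlaps that of the complex I gene Ndufs6 on the opposite strand by 30 bases, and Ndufs6 had a log2 fold change of -0.17 (adjusted p = 0.282). Mrpl14 overlaps Tmem63b by 106 bases, where the log2 fold change was -0.03. Each of the 3 called members therefore overlaps an exon of another gene. Of the 45 members with no such overlap none was called by limma, where 3.43% of all genes tested were called lower. Among them 9 had an unadjusted p under 0.05, which 4538 of all 17993 genes had. Whether calls differ with exon overlap was not tested. In the same 45, 43 had negative log2 fold changes and the median was -0.11. For the 32 with an overlap the numbers were 3 called, 29 negative and a median of -0.15. DESeq2 called Mrpl34, Mrps6 and Mrpl16, which have 1 member with exon overlap among them, and edgeR called none of these 3.

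Next in size among members that did not pass were Mrpl34, which encodes bL34 of the large subunit, and Mrps6, which encodes bS6 of the small one. Mrpl34 had 1913, 2047 and 1954 reads in WT and 1729.6, 1456 and 1246 in KO (log2 fold change -0.43 ± 0.12 SE; limma adjusted p = 0.0550). Mrps6 had 695, 677 and 676 reads in WT and 553, 526 and 459 in KO (log2 fold change -0.42 ± 0.12 SE; adjusted p = 0.0568). In both genes the groups did not overlap and KO library 3 was the lowest.

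At the other end were 5 members with positive values, none of which passed. Mrpl33, for bL33 of the large subunit, had 1359, 1619.6 and 1386 reads in WT and 1539, 1689 and 1618 in KO, and the groups overlapped (log2 fold change 0.15 ± 0.10 SE; limma adjusted p = 0.376). Mrps18c followed at 0.08, Mrps23 at 0.05, Mrps9 at 0.04 and Mrps26 at 0.01. Mrps9 and Mrps23 had negative values without WT library 1.

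All 3 KO values lay below all 3 WT values for 25 of 77 members and above them for none. The background over all tested genes was 16.2% below and 15.0% above, and it was 21.2% below among genes with a mean in the range of the members. With library totals as the scaling the count of members was 12 (background 9.60%). Small-subunit genes made up 13 of the 25 and large-subunit genes 11, with Mrps36 as the other; as shares this was 13 of 26 small-subunit and 11 of 50 large-subunit members. By origin, 19 of the 46 members with a bacterial counterpart and 5 of the 30 mitochondria-specific members were in this set. The difference between these classes was not tested. Among the small-subunit genes of bacterial type were Mrps12, for the decoding-site protein uS12 (-0.36), Mrps21 (-0.34), Mrps11 (-0.28), Mrps16 (-0.27), Mrps7 (-0.25) and Mrps15 (-0.19).

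Medians of the classes were -0.12 for the 50 large-subunit genes (49 negative) and -0.14 for the 26 small-subunit genes (22 negative), and -0.12 and -0.13 for genes with and without a bacterial counterpart. All 20 mitochondria-specific members of the large subunit had negative values, from -0.31 (Mrpl51) to -0.03 (Mrpl44, which carries an RNase III-type fold). Summed over genes, the CPM of the large subunit was 2.37 ± 0.0202 times that of the small subunit in WT and 2.39 ± 0.0199 times in KO (SD, n = 3 each), and the groups overlapped.

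By place in the large subunit, no gene of the 3 regions passed the test. The 3 genes of the stalk and its base, which receives translation factors, had log2 fold changes of -0.26 (Mrpl12), -0.23 (Mrpl10) and -0.05 (Mrpl11). Mrpl12 had 2839.8, 3769.6 and 2999 reads in WT and 2801, 2837 and 2352 in KO, with WT library 2 the highest, and did not pass (limma adjusted p = 0.219). The 6 genes at the polypeptide exit (Mrpl17, Mrpl22, Mrpl23, Mrpl24, Mrpl45 and Mrpl47) lay between -0.15 and -0.05, and in none did the groups separate. The 6 genes of the central protuberance, the part that contacts the small subunit, lay between -0.25 (Mrpl38) and -0.10 (Mrpl18). One of them is Mrpl58, a peptidyl-tRNA hydrolase that became a ribosomal subunit, at -0.15 (adjusted p = 0.369).

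None of the 3 paralogs of bacterial S18 passed the test. MRPS18C is the closest counterpart of S18 in the small subunit, MRPS18B occupies another site there and MRPS18A lies in the large subunit. Mrps18a had 1481, 1640.3 and 1639 reads in WT and 1545, 1429 and 1474 in KO, and the groups overlapped (-0.10 ± 0.09 SE; limma adjusted p = 0.549). Mrps18b had 832, 859 and 875 reads in WT and 711, 734 and 819.4 in KO, without overlap (-0.18 ± 0.11; limma adjusted p = 0.319). Mrps18c had 729.7, 834 and 827 reads in WT and 891, 853 and 785 in KO, with overlap (0.08 ± 0.11; limma adjusted p = 0.694). Differences between the paralogs were not tested. Mrps30, also of the large subunit, had the highest coefficient of variation among the members in WT (19.9%), at 2200.1, 2779 and 1879.8 reads against 1983, 2447 and 2033 in KO (-0.07; adjusted p = 0.799). Mrps36 had 1184, 1265 and 1213 reads in WT and 1140.2, 1121 and 921 in KO (-0.21; adjusted p = 0.269).

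**Figure D2:**
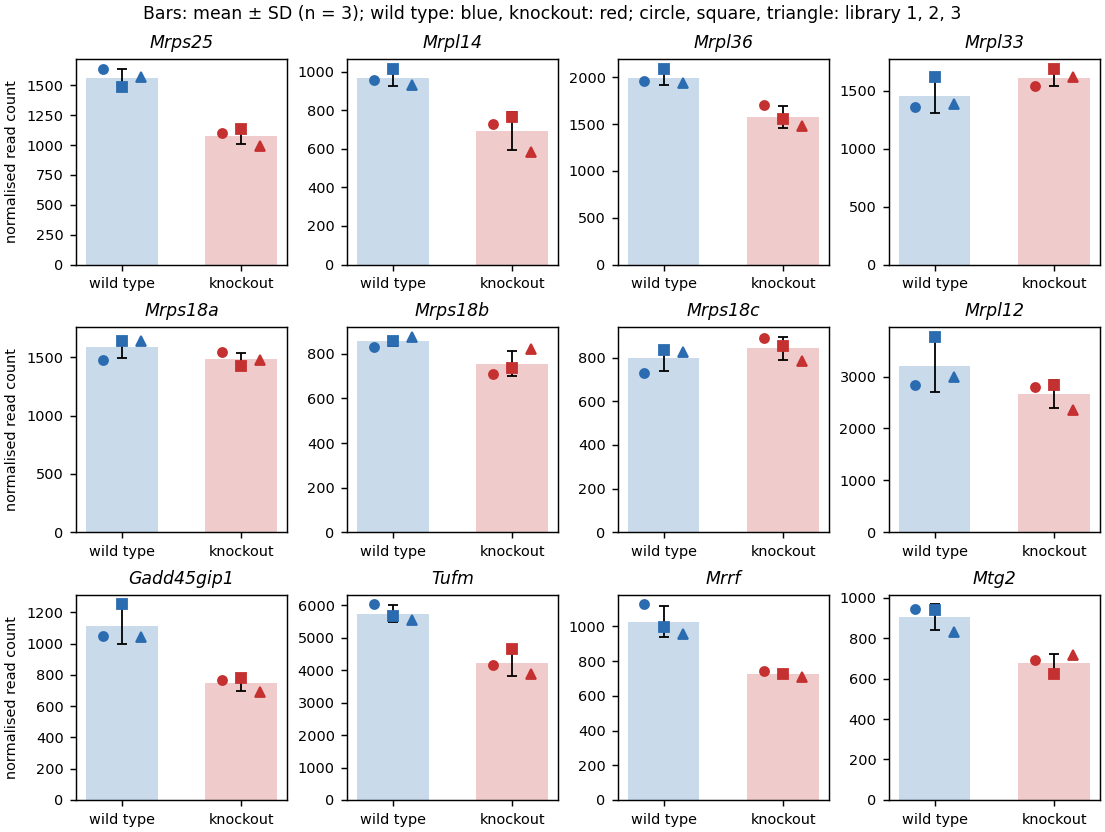
Normalised read counts in each library for 12 genes, where each bar is a group mean with its SD (n = 3). Mrps25, Mrpl14, Mrpl36, Gadd45gip1, Tufm, Mrrf and Mtg2 were called lower in KO; Mrpl33, Mrpl12 and the 3 Mrps18 paralogs were not called.

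Levels differed far more between members than between genotypes. Mean normalised read counts over the 6 libraries, which also grow with transcript length, ran from 598 (Mrps6) to 4548 (Mrps5), with a median of 2046. Per kb of the principal transcript in GENCODE the highest were Mrpl52 at 7864, Mrpl30 at 3883 and Mrpl42 at 3625, and the lowest were Mrps25 at 218, Mrpl17 at 284 and Mrpl1 at 372. Transcript choice sets part of this order: per kb of all annotated exons the highest were Mrpl52, Mrpl2 and Mrpl34 and the lowest Mrps25, Mrps10 and Mrpl33. For Mrps25, 4590 of 6576 exon bases overlap Nr2c2 exons, and how reads there were counted is not known. Within a group the spread was small, with a median coefficient of variation of 7.24% in WT and 8.16% in KO.

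The members shared their highest and lowest libraries. WT library 2 was the highest of all 6 for 56 of 77 members, and KO library 3 was the lowest of all 6 for 60. The mean log2 level of the members, set against the WT mean of each gene, was -0.07, 0.10 and -0.03 in WT libraries 1 to 3 and -0.08, -0.10 and -0.26 in KO libraries 1 to 3. KO libraries 1 and 2 thus lay close to WT library 1, and KO library 3 stood apart. With library totals as the scaling these means were -0.07, 0.07 and -0.0007 in WT and 0.0008, -0.05 and -0.14 in KO, and the groups overlapped. As a share of reads the members held 0.318%, 0.352% and 0.334% in WT and 0.338%, 0.324% and 0.309% in KO.

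**Figure D3:**
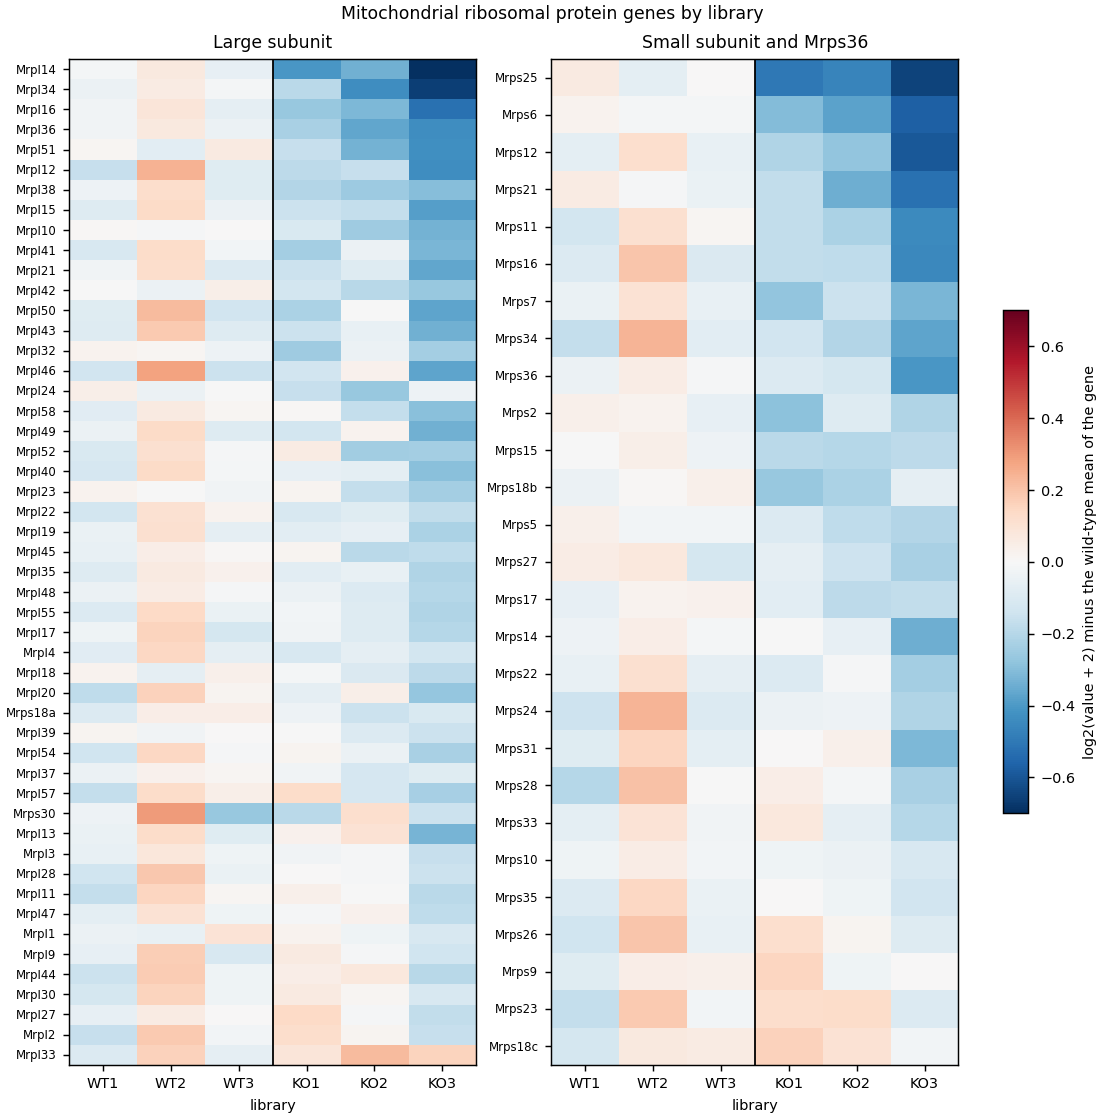
Log2(value + 2) of each member in each library, minus the WT mean of that gene, with members ordered by log2 fold change within the large subunit (left) and the small subunit with Mrps36 (right). Red tiles gather in WT2 and blue tiles in KO3, which is the lowest library for 60 of the 77 members.

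Summed levels of markers of neutrophils, of monocytes and macrophages, and of B cells were higher in every KO library than in any WT library. The summed level of 12 neutrophil markers was 119 to 447 CPM in WT and 1035 to 1308 CPM in KO, with 6 of 12 called higher. That count was 12 without WT library 2 and in DESeq2, 2 in edgeR, 2 without WT library 1 or KO library 2, and 1 without WT library 3 or without KO library 1 or 3. For 10 monocyte and macrophage markers the summed level was 39.7 to 90.8 CPM in WT and 158 to 273 CPM in KO (6 called higher). For 8 B-cell markers it was 5.06 to 6.92 and 12.7 to 20.3 CPM (6 of 7 tested called higher). For 6 erythroid markers it was 4.60 to 8.91 and 6.06 to 13.2 CPM. Of the 5 erythroid markers tested none was called by limma, edgeR or DESeq2, and none had an unadjusted p under 0.05 in limma. The monocyte and macrophage count became 0 without KO library 3 and 1 without WT library 1 or 3 or KO library 2. In this list C1qa had a negative log2 fold change (-0.32, limma adjusted p = 0.633) and the other 9 had positive ones. The B-cell count became 0 without KO library 3, 2 without WT library 1 and 3 without WT library 3. It was 2 without the intensity trend and robust estimation (2.93% of all genes called higher). No defining marker of the neutrophil, monocyte or erythroid lists was at 0 in any library, and of the B-cell list Ms4a1 and Ebf1 were at 0 in WT library 3. Within WT, library 2 had the highest neutrophil and monocyte sums and also the highest mean level of the members. Within KO, library 3 had the lowest neutrophil sum (1035 CPM) and also the lowest mean level of the members (-0.26). As groups, KO had the higher neutrophil, monocyte and B-cell sums and, with the deposited scaling, the lower mean level of the members. With library totals, the scale of these sums, the member levels of the groups overlapped. The part of these cells in the result was not tested.

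Mitoribosome subunits whose genes carry other names were measured too, and 1 of 5 fell, where 3.43% of all tested genes were called lower. Gadd45gip1, for mL64 of the large subunit, had 1048, 1251 and 1045 reads in WT and 769.9, 778 and 690.0 in KO, without overlap. Its log2 fold change was -0.58 ± 0.11 (SE, limma adjusted p = 0.0162), and the call was kept in 13 of 16 alternatives. It was lost without WT library 1, without KO library 3, and without the intensity trend and robust estimation. The small-subunit genes Dap3 (-0.18), Ptcd3 (-0.21), Chchd1 (-0.23) and Aurkaip1 (-0.13) did not pass. Dap3, which encodes a GTP-binding subunit, was the most abundant of the 5, with 7556, 7316 and 7189 reads in WT and 6419.6, 6729 and 6290.4 in KO.

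The large-subunit ribosomal RNA of the mitoribosome rose in the knockout libraries. Its gene, mt-Rnr2, had 100840, 101151 and 103770 reads in WT and 144822, 120496 and 161553 in KO, and it rose by 0.47 ± 0.11 on the log2 scale (SE; limma adjusted p = 0.0274). mt-Rnr1, the small-subunit RNA, had 23566, 26298 and 23460.2 reads in WT and 25251, 34001 and 41084 in KO. The groups overlapped and it did not pass (0.43 ± 0.16; limma adjusted p = 0.143). These libraries were selected for polyA, so ribosomal RNA reads are a partial sample of those molecules. Of the 15 mitochondrially encoded RNAs 5 rose, none fell and the remaining 10 did not pass; values of all 15 were above 0 (median 0.31) with all 6 libraries, the called ones including mt-Nd1 (0.57), mt-Atp8 (0.50), mt-Co2 (0.42) and mt-Atp6 (0.41). The count that rose was 0 without WT library 1, 1 without KO library 3, 2 without WT library 3, 1 without the intensity trend and 8 in DESeq2, and 2 of the 15 had negative values without WT library 2 or KO library 3. Their sum was 19673, 18108 and 19822 CPM in WT and 23807, 23429 and 31907 CPM in KO. KO library 3 had the highest sum of these RNAs and the lowest mean level of the nuclear members. The call of mt-Rnr2 was lost in 5 of 16 alternatives, among them those without WT library 1 or 3 and without KO library 1 or 3, with adjusted p up to 0.110.

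**Figure D4:**
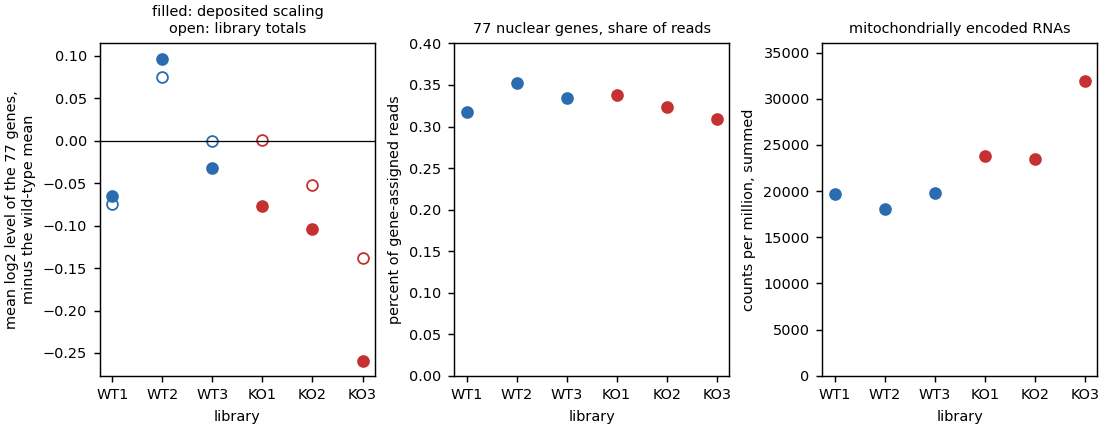
Left, mean log2 level of the 77 members in each library minus the WT mean, with the deposited scaling (filled) and with library totals (open); middle, their share of reads; right, the summed CPM of 15 mitochondrially encoded RNAs. KO3 has the lowest member level (-0.26) and the highest sum of mitochondrially encoded RNAs (31907 CPM).

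Among factors that work with the mitoribosome, 2 of 14 translation factors and 1 of 27 assembly factors fell and none rose, against 3.43% and 5.32% of all genes. The median of the translation factors was -0.15, and -0.06 with library totals. Tufm, the mitochondrial elongation factor Tu, had 6035, 5661 and 5537 reads in WT and 4164, 4660.3 and 3878 in KO, without overlap (-0.44 ± 0.09 SE; limma adjusted p = 0.0176). Mrrf, the ribosome recycling factor, had 1127, 996 and 957 reads in WT and 745, 723 and 711 in KO, also without overlap (-0.50 ± 0.11; limma adjusted p = 0.0214). Both calls were lost without WT library 1, without KO library 3, and without the intensity trend and robust estimation. That of Tufm was also lost without KO library 1, and that of Mrrf without WT library 3 or KO library 2. Of the assembly factors the GTPase gene Mtg2 fell (-0.42; limma adjusted p = 0.0463), with 943, 938 and 831 reads in WT and 691, 624 and 715 in KO. The assembly list had 18 negative members and a median of -0.08, which was 0.01 with library totals. The call of Mtg2 was lost whenever any single library was left out, in edgeR and with either other scaling. Without the filter, and without the intensity trend and robust estimation, it was lost too (adjusted p up to 0.185 over these alternatives). Another GTPase gene, Mtg1, at 0.27 in limma without passing, was called higher with library totals and in DESeq2, and DESeq2 called Mtg2, Noa1 and Mettl15 lower.

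Of 25 genes of mitochondrial transcription and RNA handling none was called by limma, edgeR or DESeq2 on all 6 libraries, and 3 had an unadjusted p under 0.05 in limma, against 4538 of all 17993 genes. The 2 with the smallest p were Polrmt, the mitochondrial RNA polymerase, at -0.33 (adjusted p = 0.0692) and Fastkd1 at -0.34 (adjusted p = 0.0953). The median of this list was -0.04, and 0.04 with library totals. For comparison, 79 cytosolic ribosomal protein genes had 1 fall, Rpl13a (-0.44), where 3.43% of all tested genes were called lower. Their median was -0.16, with 76 negative, against 51.7% of all tested genes. With library totals the median was -0.07 and 64 were negative, without WT library 2 it was -0.07 with 64 negative, and without KO library 3 it was -0.08 with 68 negative. The Rpl13a call was lost in 6 of 16 alternatives, among them library totals and leaving out WT library 1 or 3 or KO library 2 or 3. Whether the members differ from them was not tested.

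**Figure D5:**
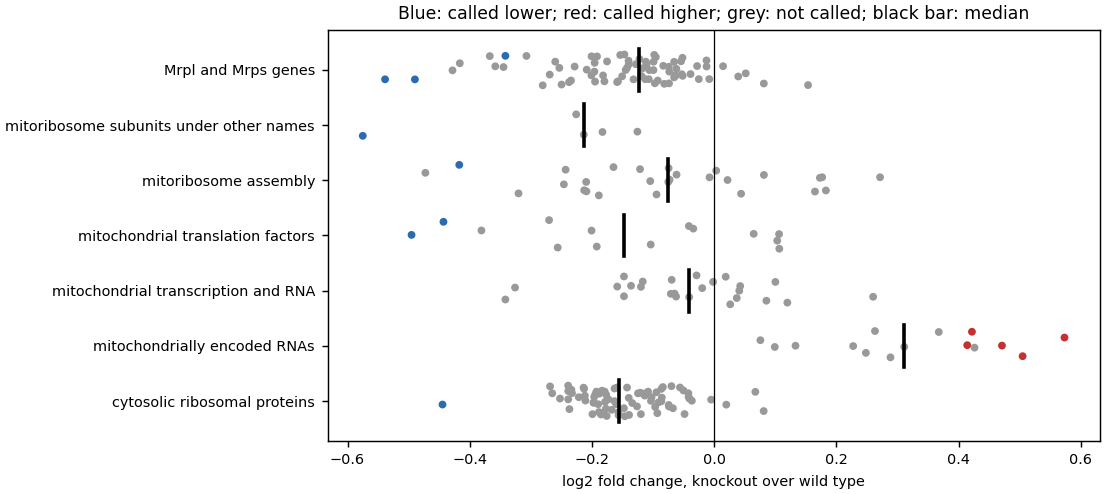
KO minus WT on the log2 scale for the 77 members and 6 related lists, each point a gene and each black bar a median. Medians ran from -0.21 for mitoribosome subunits under other names to 0.31 for mitochondrially encoded RNAs, and the cytosolic ribosomal proteins lie at -0.16.

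Many members share their start region with a gene on the opposite strand. In 23 of 77 (29.9%) a coding gene began on the opposite strand within 1000 bases upstream or overlapped the start by under 200 bases, against 12.1% of 12851 tested coding genes. Partners included Sars2 (with Mrps12), the mitochondrial seryl-tRNA synthetase gene, at -0.02, Ptcd2 (with Mrps27) at -0.14, Psma2 (with Mrpl32) at -0.11 and Fau (with Mrpl49) at -0.10. Of the 22 partners tested 14 had negative values (median -0.04), where 51.7% of all tested genes did. Among the partners limma called 2, Apba3 (with Mrpl54, -0.36) and Wdfy1 (with Mrpl44, 1.07). Over all tested genes 8.75% were called in either direction. Mrpl44 itself had 1192, 1495 and 1297 reads in WT and 1363, 1393 and 1155 in KO, a log2 fold change of -0.03. Mrps11 and Mrpl46 are neighbours on opposite strands whose exons overlap by 173 bases, and their log2 fold changes were -0.28 and -0.16.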

How the data were processed

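The deposited table holds normalised read counts (a signal scale: gene counts divided by a size factor per library) for 6 libraries. Per the submitters' processing notes, the authors used bcl2fastq 1.8.4, STAR 2.6.0a, featureCounts and DESeq2 with GRCm38; the strand setting and the annotation release of the counting were not found in those notes or in the labels. The values came out as whole reads for 100% of entries (tolerance 0.01 read), which gave library totals. The 8 rows without an identifier (at most 0.00106% of reads) were left out.

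Genes at 10 or more in at least 3 libraries were tested with limma 3.58.1 (intensity trend, robust) in R 4.3.3 on log2(value + 2), which understates changes of low genes, over all 6 libraries, with Benjamini-Hochberg adjustment over 17993 genes. Alternatives included edgeR 4.0.16 and DESeq2 1.42.0 on the recovered reads, TMM and library totals as scaling, other pseudocounts and filters, and leaving out each library. On simulated KO against WT counts (17656 genes) the test found 93 of 100 genes with a 2-fold change and 45 of 100 with a 1.5-fold change, and 13 of its 151 calls were false. Changed genes were drawn only from those above a floor of expected reads, and noise was drawn separately for each gene. Shifts shared by genes within a library, as seen among the members, were not simulated. Transcript lengths, exon overlaps and loci are from GENCODE M21 (GRCm38).

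The members and gene lists were chosen with earlier results of these data known. Genes named by rule were Phf6, called members, the 4 most positive and 4 most negative members, the 3 highest and 3 lowest per kb, the member with the mean nearest to 10, members with set roles (the Mrps18 paralogs, Mrps30, Mrps36, Mrpl12, Mrpl58) and, per related list, up to 4 called genes or the 2 with the smallest p. Other genes, neighbours and mt-Rnr1 among them, were chosen after their values were seen. Coefficients of variation were computed over the 3 libraries of a group.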

Additional observations from a re-analysis of the deposited data

How the results depend on the processing

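No member was called higher in any alternative. The number called lower, 3 in the analysis reported, was 1 with library totals and 6 in DESeq2. It was 1 without the intensity trend and robust estimation (0.689% of all genes) and 9 with the replicate block (6.16% of all genes). Among the 45 members without exon overlap it was 0, against 3.43% of all genes. It was 0 to 2 when each library was left out. Genes called over all genes were 1575, 2568 with the replicate block, 652 without trend and robust estimation, and 253 (without KO library 3) to 1941 (without WT library 2) on leaving out each library. The replicate numbers were not taken as pairs, since the correlations of deviations for same-numbered libraries were 0.012, 0.5 and 0.143 and not every library correlated best with its own number. With the replicate block Polrmt and Fastkd1 were also called lower, and the count of neutrophil markers called higher was 2 (8.11% of all genes called higher). The 25 members whose KO values all lay below their WT values (16.2% of all genes) became 12 with library totals (9.60% of all genes). With TMM the count was 21, for which the share over all genes was not computed. The member median stayed negative, between -0.16 and -0.04. The causes of these changes were not tested, except that leaving out libraries or members leaves fewer samples or genes.

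Some small values changed sign without passing in either case. Mrpl1 was 0.045 with library totals and -0.0711 to 0.0081 on leaving out a library. Mrpl30 was 0.0066 with TMM, 0.0712 with library totals and 0.0039 in edgeR, and -0.0734 to 0.0641 on leaving out a library (0.038 without KO library 3). Mrps30 was 0.0103 with library totals and -0.2051 to 0.0766 on leaving out a library. Mrps23 was -0.0307 without WT library 1. Mrps9 was -0.0023 without WT library 1 and -0.015 without KO library 1, and at most 0.075 on leaving out a library. With 3 libraries a group, the SE of a member was 0.07 to 0.14 on the log2 scale, which limits the size of change that could pass.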
